A study of Saccharomyces cerevisiae with 28 samples.

Results

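The 32 genes described here encode the enzymes that build ergosterol in Saccharomyces cerevisiae and a small set of genes around them, out of 5449 genes with a named S. cerevisiae probe set on the array. They were chosen by name, with earlier results of these data known. They are 9 genes of the early mevalonate steps, 14 genes of the late steps that begin with squalene, and 9 genes for sterol storage, electron supply, regulation and transport. Each symbol was found, with 1 probe set each. Ergosterol is the main sterol of fungal membranes. The early steps turn acetyl-CoA into the isoprenoid farnesyl diphosphate, which haem A, ubiquinone and protein prenylation also draw on, and the late steps join farnesyl units into squalene, close the sterol rings and modify them. Several late steps need molecular oxygen and haem, and the transcription factors Upc2 and Ecm22 are known to raise transcription of the pathway when sterol runs low.

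Poly(A) RNA of baker's yeast was hybridised to Affymetrix arrays after 60 min of fermentation in a medium called LF. Yeast cultures named HS and LS each had sucrose at 0, 5, 10, 20, 30, 40 and 50%, with 2 arrays for each yeast and concentration, 28 arrays in all. The names HS, LS and LF are not spelled out, no genotype is given, and nothing tells whether the 2 arrays of a group came from separate cultures, so the p-values measure only the spread between arrays, which may be technical. Values are the authors' ratios on a linear scale, adjusted so that the median of each of these genes over the 28 arrays is 1. A ratio therefore compares arrays for 1 gene and holds no level that could be set against another gene.

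In 6 LS arrays, the second replicates at 0, 5, 10, 20, 30 and 50% sucrose, the median ratio of probe sets for another yeast, Schizosaccharomyces pombe, was 1.51 to 13.7, against 0.119 to 0.994 on the other 22 arrays. Of these arrays, 5 correlated with the first LS replicate at r = -0.222 to 0.019 over probe sets on the log2 scale, and the one at 50% at 0.501, which lies within the 0.471 to 0.725 of the HS pairs. LS at 40% gave 0.87. The 14 HS arrays had S. pombe medians of 0.119 to 0.461, higher in replicate 1 than in replicate 2 at 7 of 7 concentrations. Results for HS alone hold none of the 6 arrays. The LS comparisons were made with and without them, but many values for single genes are given only without them. Such values can differ, also in sign, from those over all arrays. No measure of depth exists for arrays, and their number limits the precision.

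**Figure D1:**
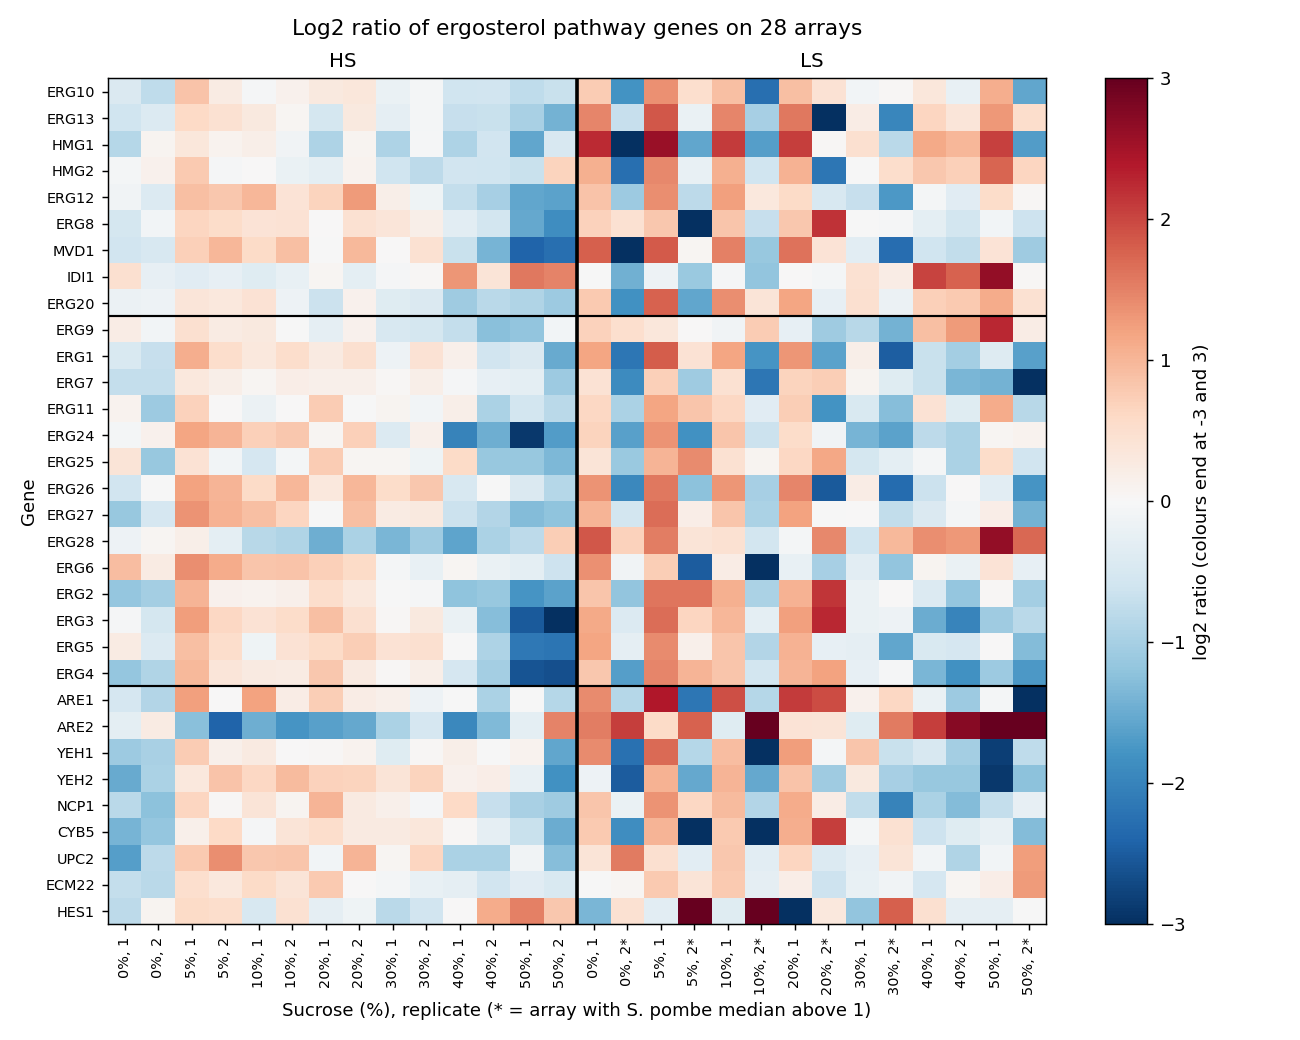
Log2 ratio of each of the 32 genes (rows, in pathway order) on each of the 28 arrays (columns, HS left of LS, sucrose in % from low to high). In HS 20 of the 32 rows have their highest mean at 5% sucrose and 19 their lowest at 50%, and these are not always the same rows. The 6 LS arrays described in the text, other than the one at 50%, do not follow the first LS replicates.

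In HS, 7 of the 9 storage, regulation, transport and electron-supply genes and 9 of the 23 pathway enzymes were higher with 5 to 20% sucrose than without sugar, where 18.7% of all probe sets were called higher. Of the 23 enzymes, 17 were lower at 50% than at 5 to 20%, where 25.4% of all probe sets were called lower. Of the 32 genes, 20 had their highest mean at 5% sucrose, 3 at 10%, 5 at 20% and 4, IDI1, ARE2, HES1 and ERG28, at 50%. The lowest mean was at 50% for 19 genes and at 0% for 7. The arrays read the culture as a whole, so fewer cells holding a transcript and less transcript per cell cannot be told apart.

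The first comparison asked what the addition of sugar did in HS, with the 6 arrays at 5, 10 and 20% sucrose set against the 2 arrays at 0%. Limma's moderated test on log2 ratios, with Benjamini-Hochberg adjustment over all 5498 named S. cerevisiae probe sets, called 16 of the 32 genes higher and 1 lower at an adjusted p under 0.05. Among all probe sets, 18.7% were called higher and 13.6% lower. The median log2 difference was 0.90 over the 32 genes and 0.31 over all probe sets. Early enzymes gave 3 of 9 called higher, late enzymes 6 of 14, and the remaining genes 7 higher and 1 lower of 9. For 18 genes every array at 5 to 20% lay above both arrays at 0%, and for 1 every array lay below, beside 31.9% and 19.1% of all probe sets.

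UPC2, the sterol-sensing activator, had ratios of 0.951 to 2.62 with a median of 1.76 over the arrays at 5 to 20%, against 0.318 and 0.584 at 0%. The groups did not overlap, and the log2 difference of 2.01 ± 0.42 (SE, adjusted p = 0.00419 in limma) was the largest rise among the 32 genes. Its paralog ECM22 had ratios of 1.02 to 1.72, median 1.36, at 5 to 20%, against 0.609 and 0.573 at 0%, a log2 difference of 1.19 ± 0.27 (adjusted p = 0.00732 in limma). YEH2, a steryl ester hydrolase that frees stored sterol, had ratios of 1.25 to 1.94, median 1.60, at 5 to 20%, against 0.353 and 0.521 at 0%, a log2 difference of 1.91 ± 0.39 (adjusted p = 0.00396 in limma). YEH1, the other hydrolase, rose by 1.25 ± 0.39 on the log2 scale.

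The acyltransferases that make steryl esters went opposite ways. ARE1 had ratios of 1.0 to 2.33, median 1.42, at 5 to 20%, against 0.707 and 0.542 at 0%, and was called higher at a log2 difference of 1.30 ± 0.44 (adjusted p = 0.0422 in limma). ARE2 had ratios of 0.189 to 0.417, median 0.335, at 5 to 20%, against 0.814 and 1.18 at 0%. It was the only one of the 32 genes called lower, at a log2 difference of -1.64 ± 0.47 (adjusted p = 0.0201 in limma), and its arrays did not overlap.

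Among the enzymes the clearest rises were late. ERG27, the 3-keto reductase of C-4 demethylation, had ratios of 0.986 to 2.56, median 1.87, at 5 to 20%, against 0.454 and 0.700 at 0%, a log2 difference of 1.63 ± 0.31 (adjusted p = 0.00256 in limma). ERG4, which catalyses the last reduction to ergosterol, had ratios of 1.18 to 1.95, median 1.24, against 0.449 and 0.533 at 0%, and ERG2, the C-8 isomerase, had 1.07 to 2.01, median 1.18, against 0.450 and 0.490. Their log2 differences were 1.51 ± 0.29 for ERG4 (adjusted p = 0.00252) and 1.47 ± 0.28 for ERG2 (adjusted p = 0.00251), both in limma. NCP1 and CYB5, which pass electrons to the sterol oxygenases, rose by 1.42 ± 0.37 and 1.59 ± 0.30 on the log2 scale. ERG26, ERG1 (squalene epoxidase) and ERG7 (lanosterol synthase) were also called higher, at 1.14, 1.10 and 0.90, as were the early enzymes MVD1, ERG12 and ERG10 at 1.22, 1.09 and 0.90.

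The HMG-CoA reductases, which set the pace of the mevalonate pathway, did not pass the test. HMG1 had ratios of 0.528 to 1.27, median 1.07, at 5 to 20%, against 0.557 and 1.05 at 0%, and HMG2 had 0.817 to 1.73, median 0.993, against 0.955 and 1.09. The groups overlapped for both. ERG11, the lanosterol demethylase, gave a log2 difference of 0.70 ± 0.41, ERG25, the C-4 methyl oxidase, 0.48 ± 0.49, and ERG3, the C-5 desaturase, 0.99 ± 0.36 (adjusted p = 0.213, 0.48 and 0.0577 in limma).

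These calls rest on the pair of arrays at 0%. Without the first of them 3 of the 32 genes were called, without the second 7, and centring each array on its median left 10 higher and 1 lower. In 1 fit of all 28 arrays, which shares the wider LS spread, 1 of the 32 genes was called. The share of all probe sets called is not given for these fits. Fewer calls in these genes are thus not told apart from fewer calls in general.

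**Figure D2:**
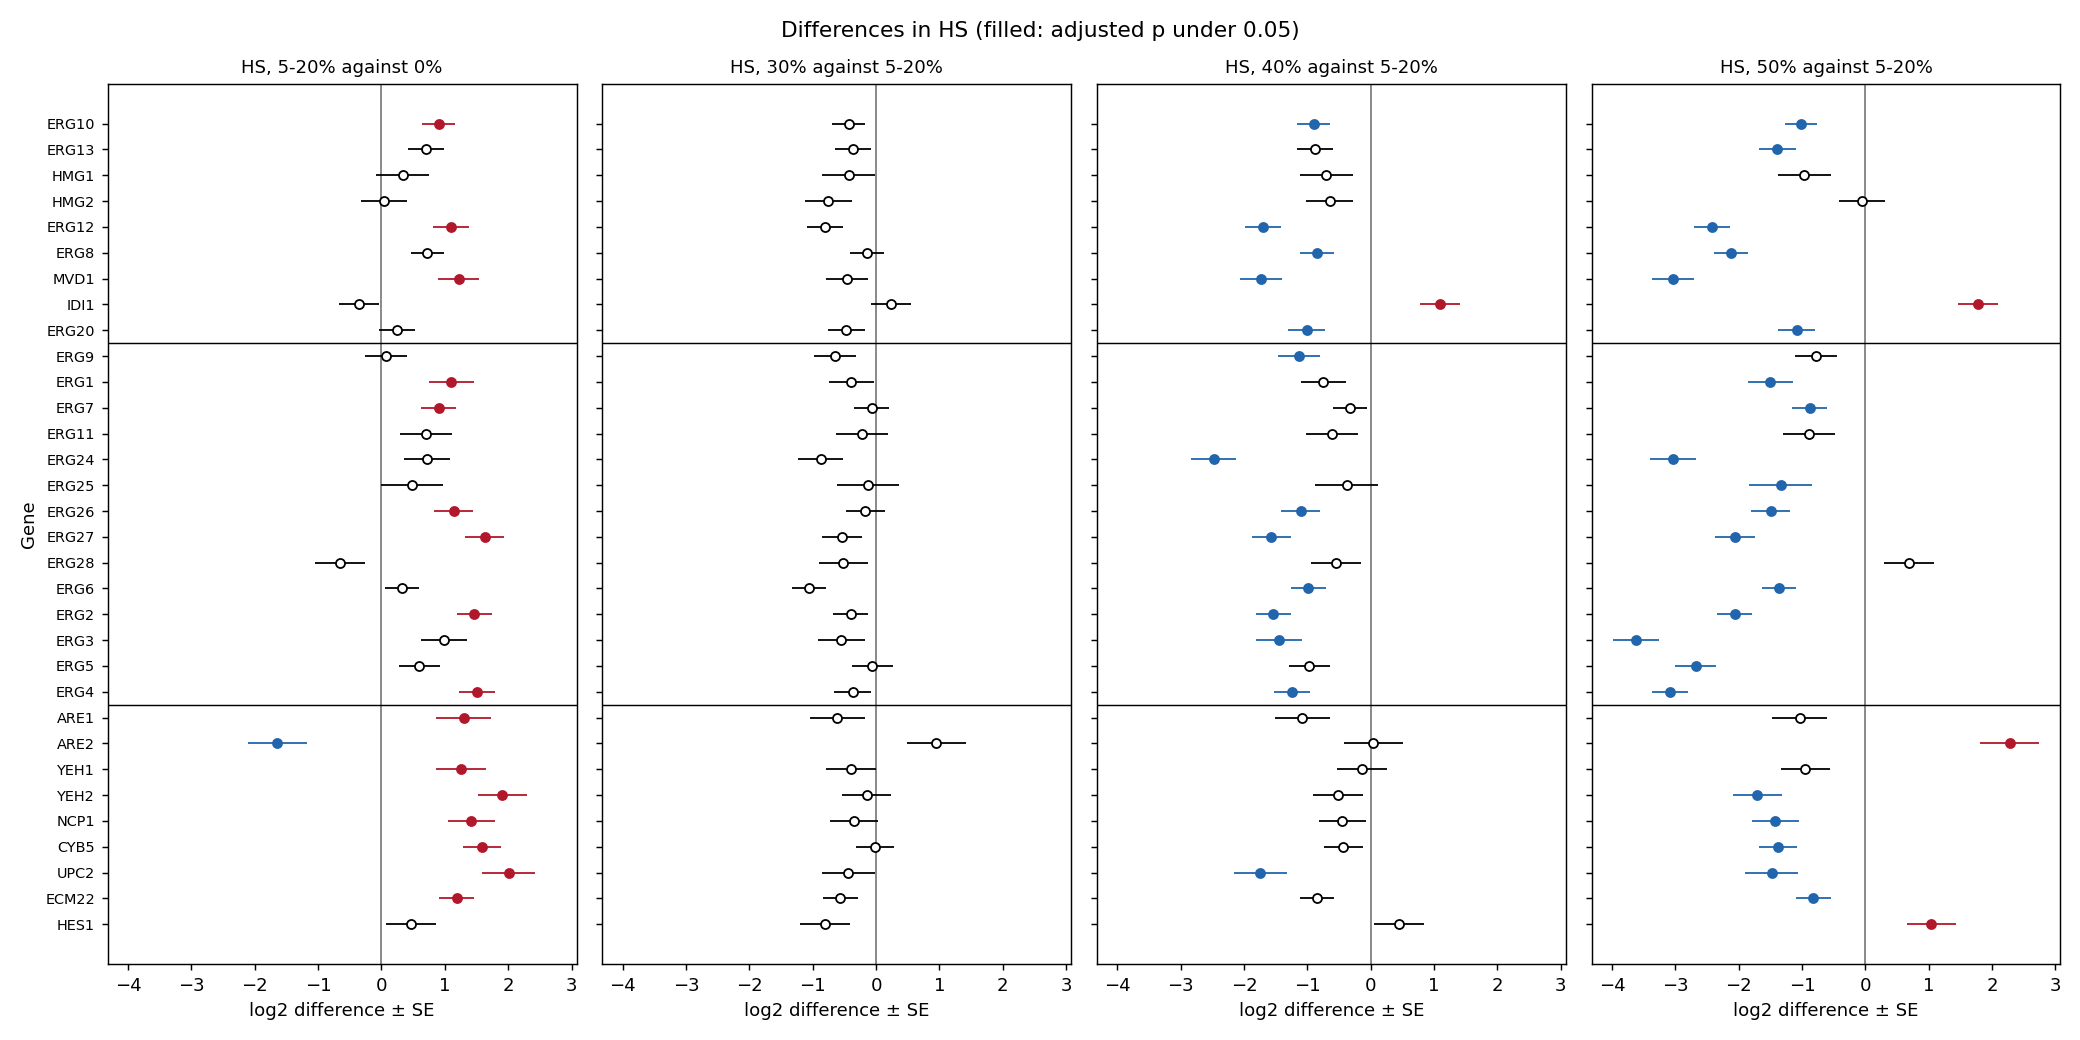
Log2 differences with their SE (x axis) for the 32 genes (y axis, pathway order) in HS, for 5-20% against 0%, and for 30, 40 and 50% against 5-20% sucrose. Filled points passed an adjusted p of 0.05: 17 genes in the first panel, 0 at 30%, 15 at 40% and 25 at 50%.

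The next comparisons set HS arrays at 30, 40 and 50% sucrose against the same 6 arrays at 5 to 20%. They share these arrays with each other and with the comparison above. At 30% limma called 0 of the 32 genes, while 0.782% of all probe sets were called lower and 0.182% higher. At an unadjusted p under 0.05, ERG6, ERG12 and ERG24 were lower, at -1.06, -0.81 and -0.88 on the log2 scale, beside 6.73% of all probe sets lower and 4.02% higher. Differences were negative for 30 of the 32 genes, with a median of -0.42 on the log2 scale against -0.05 over all probe sets. For 10 genes both arrays at 30% lay below all 6 at 5 to 20%, and for ARE2 above, beside 11.3% and 7.88% of all probe sets.

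At 40% sucrose 14 of the 32 genes were lower and 1, IDI1, was higher than at 5 to 20% in limma, beside 11.3% and 8.49% of all probe sets. The median log2 difference was -0.86 over the 32 genes and -0.06 over all probe sets. Falls were spread over both branches, with 5 of 9 early and 8 of 14 late enzymes, and UPC2 was the only one of the remaining 9 genes called lower in this fit. Both arrays at 40% lay below all 6 at 5 to 20% for 21 genes and above them for 1, beside 21.6% and 17.0% of all probe sets.

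ERG24, the C-14 reductase, fell most at 40%, with ratios of 0.250 and 0.365 at 40%, against 1.04 to 2.28 with a median of 1.71 at 5 to 20%. The log2 difference was -2.48 ± 0.36 (adjusted p = 0.00103 in limma). UPC2 had 0.515 and 0.519 at 40%, against 0.951 to 2.62, median 1.76, at 5 to 20%, a log2 difference of -1.75 ± 0.42 (adjusted p = 0.0145 in limma). In both genes all arrays at 40% lay below the lowest one at 5 to 20%.

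In the mevalonate steps, MVD1, the diphosphomevalonate decarboxylase, had ratios of 0.628 and 0.378 at 40%, against 0.984 to 2.0, median 1.76, at 5 to 20%, and ERG12, mevalonate kinase, had 0.613 and 0.498, against 1.33 to 2.41, median 1.80. Their log2 differences were -1.73 ± 0.33 for MVD1 (adjusted p = 0.00499) and -1.70 ± 0.28 for ERG12 (adjusted p = 0.0024) in limma. ERG20, ERG10 and ERG8 were lower by smaller steps, at -1.01, -0.90 and -0.85. Of the late enzymes, ERG27 and ERG2 gave -1.57 ± 0.31 and -1.54 ± 0.28, and ERG2 had 0.434 and 0.458 at 40%, against 1.07 to 2.01, median 1.18, at 5 to 20%.

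ERG3 and ERG4 were lower at 40% with a wider spread between the arrays. ERG3 had ratios of 0.870 and 0.412 at 40%, against 1.34 to 2.38, median 1.51, at 5 to 20%, a log2 difference of -1.45 ± 0.36 (adjusted p = 0.0179 in limma). ERG4 had 0.705 and 0.493 at 40%, against 1.18 to 1.95, median 1.24, a log2 difference of -1.24 ± 0.29 (adjusted p = 0.0124 in limma). ERG9 (squalene synthase), ERG26 and ERG6 (the C-24 methyltransferase) completed the late enzymes called, at -1.13, -1.11 and -0.99. HMG1, HMG2, ERG1, ERG11 and ERG25 had log2 differences of -0.70, -0.65, -0.75, -0.61 and -0.38 and did not pass, with adjusted p of 0.163 to 0.642 in limma.

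IDI1, the isomerase of isopentenyl diphosphate, had ratios of 2.51 and 1.30 at 40%, against 0.774 to 1.03, median 0.827, at 5 to 20%. Both arrays lay above all 6, and the log2 difference was 1.09 ± 0.31 (adjusted p = 0.0328 in limma). Without the first array at 40% its log2 difference was 0.62 and the call was lost.

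Here too single arrays moved the count. It was 4 of the 32 genes, ERG24, ERG12 and ERG2 lower and IDI1 higher, without the second array at 40%, and 8 without the first, while it was 8 without the first array at 5%, 9 without either array at 10%, and 10 to 14 without any other array at 5 to 20%. ERG3 at 40% gave -0.91 without the second array at 40%. In the fit of all 28 arrays 0 of the 32 genes were called at 40%.

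At 50% sucrose 22 of the 32 genes were lower and 3 higher than at 5 to 20% in limma, beside 25.4% and 20.7% of all probe sets. The median log2 difference was -1.37 over the 32 genes and -0.135 over all probe sets. Early enzymes gave 6 lower and 1 higher of 9, late enzymes 11 lower of 14, and the remaining genes 5 lower and 2 higher of 9. Both arrays at 50% lay below all 6 at 5 to 20% for 24 genes and above them for 3, beside 30.0% and 24.2% of all probe sets.

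ERG3 fell most, and ERG4, ERG24 and the early gene MVD1 followed with similar log2 differences. ERG3 had ratios of 0.173 and 0.102 at 50%, against 1.34 to 2.38, median 1.51, at 5 to 20%, a log2 difference of -3.62 ± 0.36 (adjusted p = 3.92e-05 in limma). ERG4 had 0.167 and 0.161 at 50%, against 1.18 to 1.95, median 1.24, a log2 difference of -3.09 ± 0.29 (adjusted p = 2.45e-05 in limma). ERG5, the C-22 desaturase, had 0.228 and 0.218 at 50%, against 0.917 to 1.88, median 1.48, a log2 difference of -2.68 ± 0.32 (adjusted p = 0.000111 in limma). Thus the genes of C-5 desaturation, C-22 desaturation and the final reduction all fell, and no array at 50% overlapped one at 5 to 20%.

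ERG24 had ratios of 0.135 and 0.311 at 50%, against 1.04 to 2.28, median 1.71, at 5 to 20%, a log2 difference of -3.04 ± 0.36. MVD1 had 0.188 and 0.208, against 0.984 to 2.0, median 1.76, a log2 difference of -3.03 ± 0.33 (adjusted p = 6.23e-05 in limma). ERG12, with 0.339 and 0.331 against 1.33 to 2.41, and ERG8, phosphomevalonate kinase, with 0.345 and 0.273 against 1.01 to 1.56, gave -2.42 ± 0.28 and -2.12 ± 0.26. ERG27 and ERG2 were both at -2.06, with ERG27 at 0.405 and 0.433 and ERG2 at 0.291 and 0.331 on the arrays at 50%. ERG13, ERG10 and ERG20 were called lower too, at -1.39, -1.02 and -1.08, and so were ERG26, ERG1, ERG6, ERG25 and ERG7, at -1.50, -1.50, -1.36, -1.34 and -0.88.

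HMG1, HMG2 and ERG11 again did not pass. HMG1 had ratios of 0.339 and 0.718 at 50%, against 0.528 to 1.27 at 5 to 20%, and HMG2 had 0.634 and 1.60, against 0.817 to 1.73. ERG11 had 0.679 and 0.573 at 50%, against 0.883 to 1.69, median 1.01, so its arrays did not overlap, but the log2 difference of -0.90 ± 0.41 missed the threshold (adjusted p = 0.0968 in limma). ERG9 and ERG28, a scaffold of the C-4 demethylation enzymes, gave -0.77 and 0.69 and were not called.

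The 3 genes that rose at 50% were IDI1, ARE2 and HES1. IDI1 had ratios of 3.01 and 2.81 at 50%, against 0.774 to 1.03, median 0.827, at 5 to 20%, a log2 difference of 1.78 ± 0.31 (adjusted p = 0.001 in limma). ARE2 had 0.820 and 2.82 at 50%, against 0.189 to 0.417, median 0.335, a log2 difference of 2.28 ± 0.47 (adjusted p = 0.00234 in limma), which was 1.39 without the second array at 50%. HES1, an oxysterol-binding protein homolog, had 2.84 and 1.75 at 50%, against 0.714 to 1.49, median 1.14, a log2 difference of 1.04 ± 0.39 (adjusted p = 0.0494 in limma), and lost its call without the first array at 50%, at 0.69.

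Of the regulators, UPC2 had 0.935 and 0.415 at 50%, against 0.951 to 2.62 at 5 to 20%, a log2 difference of -1.48 ± 0.42, and ECM22 had 0.793 and 0.731, against 1.02 to 1.72, a log2 difference of -0.82 ± 0.27 (adjusted p = 0.0138 and 0.0293 in limma). YEH2, NCP1 and CYB5 were called lower, at -1.70, -1.42 and -1.38, while YEH1 and ARE1, at -0.95 and -1.04, were not. Without the second array at 50%, UPC2, YEH2, ERG1 and ERG7 lost their calls, at -0.89, -0.90, -0.97 and -0.49. Leaving out single arrays gave 18 to 24 of the 32 genes called at 50%, and the fit of all 28 arrays gave 9.

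A reading against no sugar was added after the values were seen, and is given with no test. Both HS arrays at 50% lay below both at 0% for 12 of the 32 genes, all of them enzymes: ERG13, ERG12, ERG8, MVD1, ERG20, ERG24, ERG27, ERG6, ERG2, ERG3, ERG5 and ERG4. They lay above for IDI1, ECM22 and HES1. Among all probe sets 21.1% lay below and 25.2% above. Set against 40%, the arrays at 50% lay below for 15 genes and above for IDI1, ERG28 and ARE2, beside 22% and 23.5% of all probe sets.

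**Figure D3:**
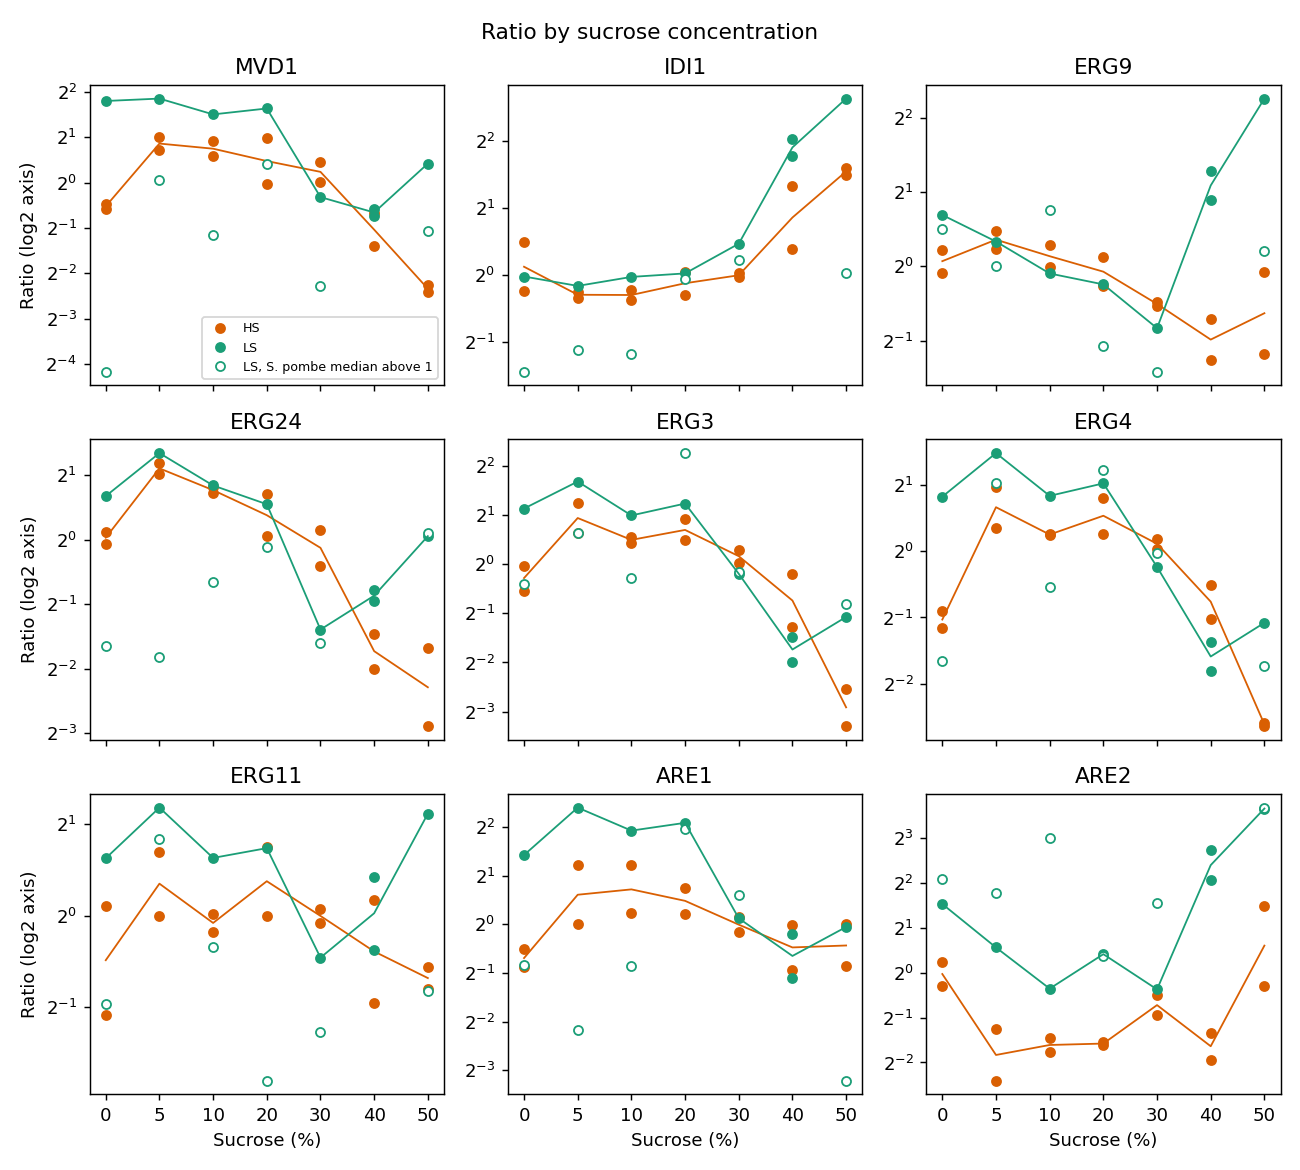
Ratio (log2 axis) against sucrose concentration in % for 9 of the 32 genes, with HS and LS arrays as points and lines through the group means of log2 values without the 6 LS arrays, which are drawn open. MVD1, ERG24, ERG3 and ERG4 were low at 50% in HS, IDI1 was 3.01 and 2.81 at 50% in HS and 4.08 and 3.41 at 40% in LS, and ERG9 at 40% was 0.610 and 0.417 in HS, against 1.86 and 2.44 in LS.

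In LS the same comparisons over all 14 arrays called 0 of the 32 genes in limma, with SEs of 0.72 to 1.76 for 5 to 20% against 0%. Adjusted calls over all probe sets were 0.0% higher and 0.0% lower there, 0.0% higher and 0.0182% lower at 30%, 3.35% and 0.818% at 40%, and 3.97% and 1.29% at 50%. At an unadjusted p under 0.05, 0 of the 32 genes passed for 5 to 20% against 0%, where 0.909% of all probe sets were higher and 1.02% lower, and only NCP1 was lower at 30%, where 2.29% were higher and 2.89% lower. At 40% IDI1 was higher and ERG2, ERG3 and ERG4 lower without adjustment, beside 10.7% and 8.8% of all probe sets. At 50% ARE2 was higher and ERG7, ERG3 and ERG4 lower, beside 11.4% and 10.7%. The nearest to a call was ERG3 at 40%, with a log2 difference of -2.82 ± 0.77 (adjusted p = 0.0585 in limma).

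Without the 6 arrays LS keeps 1 array at each concentration but 40%, and 3 arrays at 5 to 20%. In a fit of the 22 arrays that are left, the lone arrays are assumed to vary like the HS groups and LS at 40%. That fit called 0 of the 32 genes for 5 to 20% against 0% sucrose in LS, with 0.0364% of all probe sets higher and 0.4% lower. At 30% it called 4 lower, ERG12, MVD1, ERG24 and NCP1, beside 4.11% of all probe sets lower and 2.27% higher.

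At 40%, the only sugar level above 20% with both LS arrays in the fit, 21 of the 32 genes were lower and 4 higher, beside 31.9% and 22% of all probe sets. The median log2 difference was -1.24 over the 32 genes and -0.35 over all probe sets. Over all LS arrays these medians were -0.56 and -0.25. ERG3 had ratios of 0.356 and 0.253 at 40%, against 1.99, 2.35 and 3.20 on the first arrays at 5 to 20%, a log2 difference of -3.04 ± 0.40 (adjusted p = 7.69e-05 in limma). ERG4 had 0.387 and 0.286, against 1.78, 2.03 and 2.78, a log2 difference of -2.70 ± 0.32 (adjusted p = 3.78e-05 in limma).

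ARE1, MVD1 and ERG1 followed in LS at 40%, at -2.79 ± 0.49, -2.32 ± 0.35 and -2.29 ± 0.38 on the log2 scale in that fit. MVD1 had 0.664 and 0.604 at 40%, against 2.83, 3.10 and 3.61 at 5 to 20%, and no array overlapped. HMG1 passed in LS at 40%, with 2.22 and 1.99 at 40% against 4.21, 4.29 and 6.0 at 5 to 20%, a log2 difference of -1.18 ± 0.45 (adjusted p = 0.0408 in limma). HMG2, ERG11, ERG25 and UPC2 did not, at -0.43, -0.82, -1.21 and -1.13. The sign for HMG1 depended on the arrays used. Over all LS arrays the mean log2 ratio of HMG1 was 1.07 at 40%, against 0.52, 0.22 and 1.06 at 5, 10 and 20%. For ERG13, at -1.14 in that fit, these means were 0.50, against 0.83, 0.23 and -0.98. Over all LS arrays differences were positive for 5 of the 9 early enzymes, with a median of 0.26, against -1.14 in that fit.

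The genes that rose in LS at 40% were IDI1, ERG9, ARE2 and HES1. IDI1 had ratios of 4.08 and 3.41 at 40%, against 0.893, 0.980 and 1.02 on the first arrays at 5 to 20%, a log2 difference of 1.96 ± 0.34 (adjusted p = 0.000482 in limma). ERG9 had 1.86 and 2.44 at 40%, against 0.845, 0.936 and 1.26, a log2 difference of 1.09 ± 0.36 (adjusted p = 0.0225 in limma). ARE2 had 4.21 and 6.61 at 40%, against 0.782, 1.33 and 1.48, a log2 difference of 2.19 ± 0.51 (adjusted p = 0.0035 in limma). With all 14 LS arrays these were 2.32, 1.14 and 1.44 for IDI1, ERG9 and ARE2. HES1 was at -0.20 in place of 1.92, so its sign depended on the 6 arrays. Without them HES1 had 1.39 and 0.826 at 40%, against 0.807, 0.774 and 0.0367 at 5, 10 and 20%. Its difference of 1.92 thus rests largely on the low reading of the lone array at 20%.

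At 50% the lone LS array gave 12 genes lower and 5 higher in the 22-array fit, beside 26.8% and 22.9% of all probe sets. The median log2 difference in that fit was -0.32 over the early enzymes, -1.07 over the late ones and -0.17 over all probe sets. Over all LS arrays these medians were -0.08, -1.01 and -0.26. YEH1 and YEH2 were lowest relative to 5 to 20% in the 22-array fit, with log2 differences of -4.11 ± 0.54 and -3.87 ± 0.53. On the lone LS array YEH1 was at 0.142, against 1.91 to 3.26 at 5 to 20%, and YEH2 was at 0.134, against 1.81 to 2.07. The other LS array at 50%, one of the 6, read 0.586 for YEH1 and 0.427 for YEH2. IDI1, ERG9, ERG28, ARE2 and HES1 were higher at 50%, at 2.68, 2.27, 1.99, 3.45 and 1.56. For HES1 the array kept read 0.835 and the other 0.992, and the low side again held the reading of 0.0367 at 20%. Over both arrays its mean log2 ratio was -0.14 at 50%, against 1.45, 1.66 and -2.22 at 5, 10 and 20%.

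**Figure D4:**
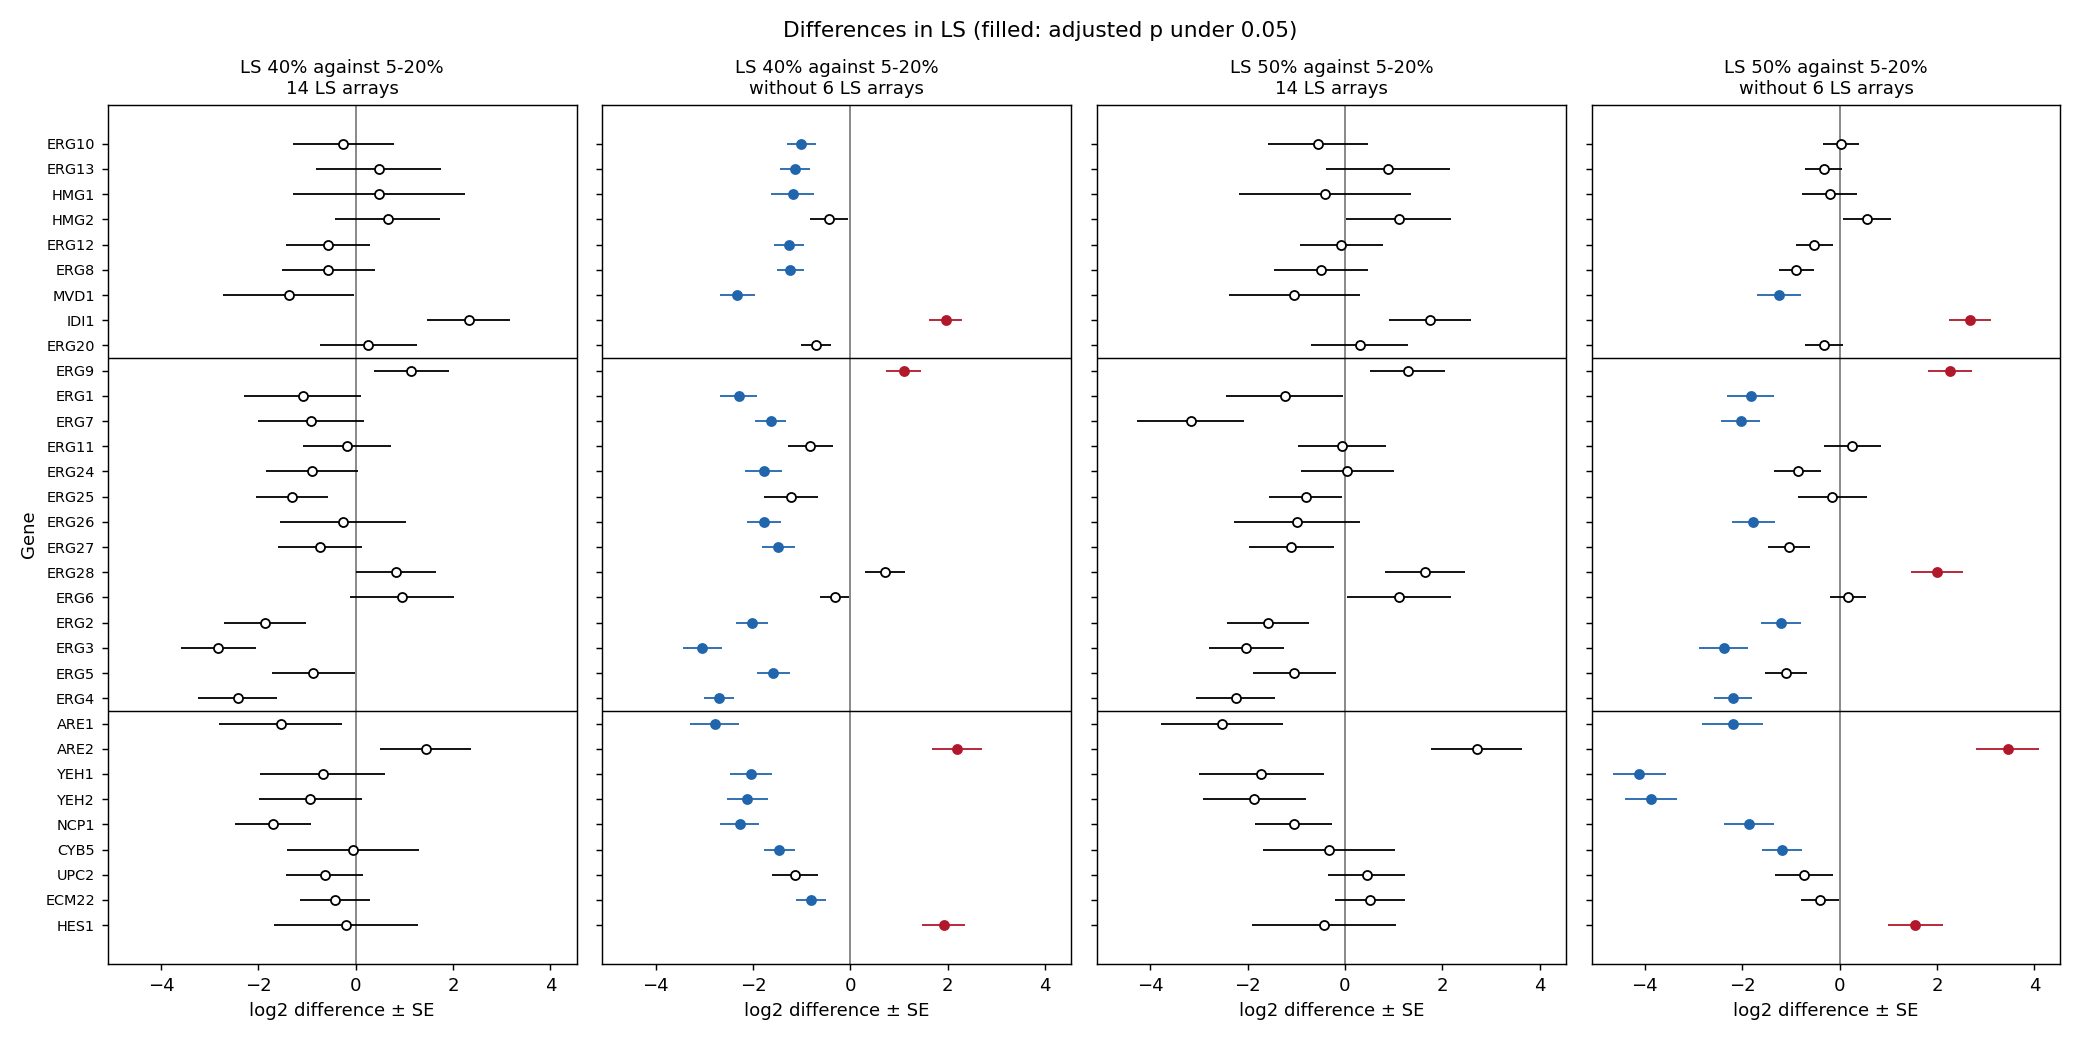
Log2 differences with their SE (x axis) for the 32 genes (y axis) in LS at 40 and 50% against 5-20% sucrose, from all 14 LS arrays and without the 6 arrays. Filled points passed an adjusted p of 0.05: 0 genes with all LS arrays, and 25 at 40% and 17 at 50% without the 6.

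The medians of the log2 differences were also set side by side for the late and the early steps. In HS the late and early medians were 0.81 and 0.70 for 5 to 20% against 0%, -1.05 and -0.88 for 40% against 5 to 20%, and -1.50 and -1.08 for 50%. The late median lay 0.42 below the early one at 50% and 0.17 below at 40%, on the log2 scale. Leaving out 1 array at a time gave -0.66 to -0.15 for the late minus early difference at 50%, and -0.44 to 0.03 at 40%, where the sign turned without the second array at 40%. With IDI1 and ERG20 left out of the early list the difference at 50% was -0.11. Leaving ERG9, ERG1 and ERG7 out of the late list, or quantile normalization, widened it instead, with values given at the end.

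To set late and early steps side by side on single arrays, each gene was taken relative to its own mean log2 ratio at 5 to 20% in the same yeast, without the 6 LS arrays. The late minus early difference of these changes was 0.03 and -0.44 on the HS arrays at 40%, and -0.15 and -0.66 at 50%. In LS it was -0.61 and -0.35 on the arrays at 40%, and -0.74 and -1.07 at 50%, where the second is one of the 6 arrays. The arrays at 40% in HS thus differed in sign.

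From the fitted differences, the late minus early value at 40% in LS was -1.14 over all 14 arrays and -0.47 without the 6. The same value for the HS minus LS differences at 40% was 0.91 on all arrays, 0.44 without the 6 and 0.42 after quantile normalization. At 50% it was 0.48, -0.13 and -0.61, so its sign depended on the arrays and the scaling. These are descriptions of 23 enzymes chosen by name with earlier results of these data known, and no test was made of them.

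**Figure D5:**
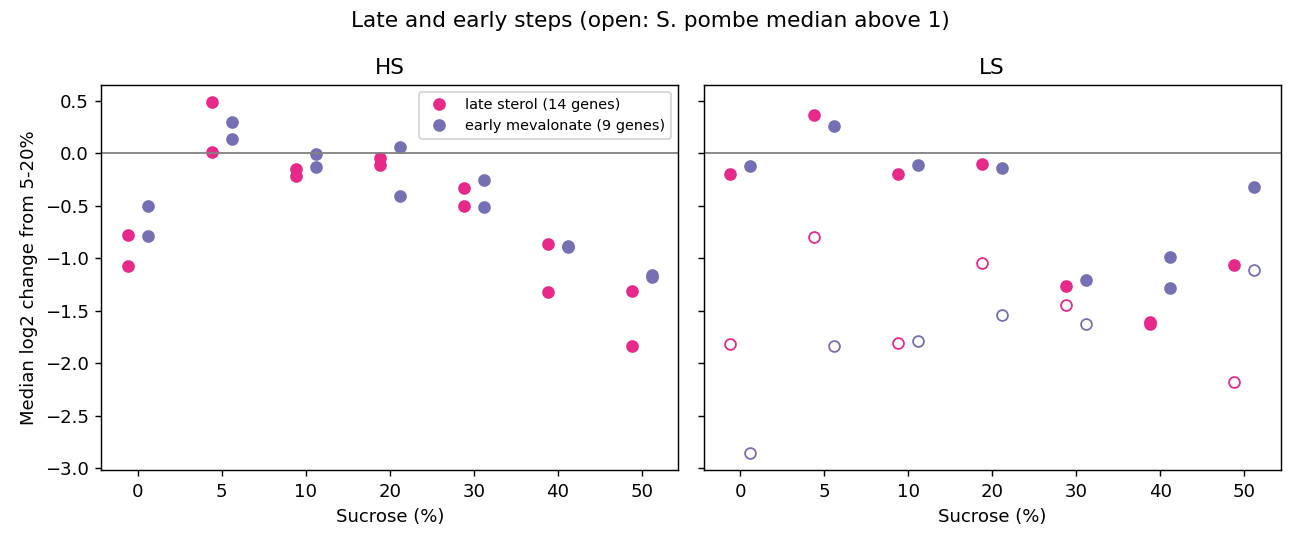
Median log2 change from the mean at 5-20% sucrose of the same yeast (y axis) for the 14 late and 9 early genes on each array, by sucrose concentration in % (x axis), for HS and LS, with the 6 LS arrays drawn open and left out of the mean at 5-20%. In HS at 50% the late genes lay at -1.31 and -1.84 and the early genes at -1.16 and -1.18.

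HS was then set against LS on all 28 arrays, with the 7 concentrations given equal weight. Limma called 2 of the 32 genes, both lower in HS, beside 11.4% lower and 4.06% higher among all probe sets. ARE2 had a log2 difference of -2.59 ± 0.34 (adjusted p = 4.4e-05) and ERG28 of -1.61 ± 0.28 (adjusted p = 0.00102), and in both genes the HS mean was lower at all 7 concentrations. ARE2 at 40% sucrose had ratios of 0.260 and 0.397 in HS, against 4.21 and 6.61 in LS, and at 50% 0.820 and 2.82 in HS, against 12.6 and 12.8 in LS. ERG28 at 40% had 0.335 and 0.521 in HS, against 2.64 and 2.48 in LS.

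Both calls held without the 6 arrays, at -2.09 ± 0.25 for ARE2 and -1.70 ± 0.21 for ERG28. That fit called 19 of the 32 genes lower in HS and 1, HES1, higher, beside 18.7% and 10.2% of all probe sets. It included 8 of the 9 early enzymes, all but IDI1. HMG1 had the largest difference of them, -2.20 ± 0.22 (adjusted p = 4.2e-05 in limma), with HS arrays from 0.339 to 1.27 and first LS arrays at 5, 10 and 20% at 6.0, 4.29 and 4.21. With all 28 arrays HMG1 was at -0.61 ± 0.65, and its second LS arrays at those concentrations read 0.342, 0.318 and 1.03. HES1 was higher in HS at 7 of 7 concentrations without the 6 arrays, by 0.358 to 4.56 on the log2 scale. The largest difference was at 20%, where the lone LS array read 0.0367. With all arrays HES1 was higher in HS at 4 concentrations and lower at 3.

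Whether the response to high sugar differed between the yeasts was tested as an interaction. On all arrays 0 of the 32 genes were called at 40% and at 50% in limma, with ERG9 lower in HS at 40% and ERG9, ERG12, ERG24, ERG6 and UPC2 lower at 50% at an unadjusted p under 0.05. Among all probe sets the unadjusted calls were 4.77% higher and 7.48% lower at 40% and 6.37% higher and 5.07% lower at 50%, and the adjusted calls were 0.109% higher and 0.309% lower at 40% and 0.309% higher and 0.182% lower at 50%. Without the 6 arrays 8 genes were called at 40%, where 14.7% of all probe sets were higher and 12.8% lower. Over both directions that is no larger a share than among all probe sets. The response of ERG1, ERG7, ERG3, ERG4, YEH1 and NCP1 was less negative in HS than in LS, by 1.31 to 1.91 on the log2 scale. That of ERG9 and ARE2 was lower in HS, at -2.22 ± 0.48 and -2.16 ± 0.69.

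At 50% without the 6 arrays 6 genes were called, where 6.66% of all probe sets were higher and 6.04% lower. The response of ERG9, ERG24, ERG12 and ERG6 was lower in HS, at -3.04, -2.18, -1.90 and -1.53, and that of YEH1 and YEH2 higher, at 3.16 and 2.17. ERG9, lower in HS, and YEH1, higher in HS, were named at both 40% and 50%. At 50% ERG9 had 0.439 and 0.949 in HS, against 4.81 in LS on the array kept and 1.16 on the other. YEH1 had 1.07 and 0.342 in HS, against 0.142 in LS on the array kept and 0.586 on the other. In the 22-array fit 17 of the 32 genes were lower at 40% in HS, beside 12.1% of all probe sets, and 21 in LS, beside 31.9%, and 13 were lower in both, which is 76.5% of the HS genes and 61.9% of the LS genes. Over all probe sets 67.6% of those lower in HS were lower in LS, and 25.7% of those lower in LS were lower in HS.

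Genes that use or surround the pathway were counted from 5 further lists: 17 genes of sterol uptake and transport, 12 of sterol regulation and reductase turnover, 8 of haem synthesis, 13 of other isoprenoid users and 10 hypoxic genes. For 5 to 20% against 0% in HS, limma called 4 higher and 2 lower in sterol uptake, 2 higher in regulation, 2 higher in haem synthesis, 3 higher and 2 lower among isoprenoid users, and 5 higher and 2 lower among hypoxic genes, beside 18.7% higher and 13.6% lower among all probe sets. PRY2, a secreted sterol-binding protein, rose by 5.04 ± 0.38 on the log2 scale and AUS1, a sterol importer, by 2.81 ± 0.45. HEM13, the oxygen-requiring coproporphyrinogen oxidase, rose by 2.87 ± 0.30. Of the hypoxic genes DAN1 and AAC3 rose by 4.65 and 4.21, while CYC7, the minor cytochrome c, was at -4.94.

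At 30% in HS only PRY2, TIR1 and TIR4 of these lists were called, all lower, at -2.79, -2.45 and -2.23, beside 0.782% of all probe sets lower and 0.182% higher. At 40% sterol uptake gave 2 higher and 6 lower, regulation 2 and 2, haem synthesis 3 lower, isoprenoid users 3 lower, and hypoxic genes 1 higher and 5 lower, beside 8.49% higher and 11.3% lower among all probe sets. PRY2 was at -5.20 and PDR11, the other sterol importer, at -2.13, HEM13 at -3.36, TIR1, a cell wall mannoprotein, at -4.90 and CYC7 at 4.43. At 50% the counts were 1 higher and 8 lower in sterol uptake, 4 and 4 in regulation, 3 lower in haem synthesis, 1 higher and 4 lower among isoprenoid users, and 2 higher and 6 lower among hypoxic genes, beside 20.7% higher and 25.4% lower.

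PRY2 and PDR11 were at -4.57 ± 0.38 and -4.01 ± 0.40 at 50% in HS, and HEM13 at -4.14 ± 0.30. Of the regulators ROX1, a haem-dependent repressor of hypoxic genes, was at 2.64 ± 0.62, and NSG1 and NSG2, the membrane proteins that stabilise Hmg2, were at -1.83 ± 0.31 and 2.16 ± 0.44. COQ2 and CDC43, which prenylate the ubiquinone ring and proteins, were at -2.92 and -2.42, and COQ1 at 1.98. CYC7 was at 6.85 ± 0.74 and TIR1 at -5.27 ± 0.38.

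In LS, all 14 arrays called 3 genes of these lists at 40%, beside 3.35% higher and 0.818% lower among all probe sets, and 3 at 50%, beside 3.97% and 1.29%. At 40% CDC43 and DAN1 were lower, at -3.74 ± 0.93 and -5.21 ± 0.96, and CYC7 was higher, at 5.04 ± 1.02. At 50% SUT1 and HEM13 were lower, at -4.0 ± 0.94 and -4.08 ± 1.04, and CYC7 was higher, at 6.06 ± 1.02. In the 22-array fit without the 6 arrays CDC43, DAN1 and CYC7 kept their calls at 40%, at -4.16, -5.31 and 5.85, and SUT1, HEM13 and CYC7 at 50%, at -2.29, -3.36 and 7.42.

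That fit called 0 genes of the lists for 5 to 20% against 0% in LS. At 30% it called 1 higher and 1 lower in sterol uptake, 2 lower in haem synthesis and 1 higher and 3 lower among hypoxic genes, beside 2.27% higher and 4.11% lower among all probe sets. At 40% sterol uptake gave 3 higher and 8 lower, regulation 4 and 4, haem synthesis 4 lower, isoprenoid users 2 higher and 6 lower, and hypoxic genes 2 higher and 6 lower, beside 22% higher and 31.9% lower. HEM13 was at -4.21 ± 0.34 and PDR11 at -3.59 ± 0.44 on the log2 scale at 40%. At 50% the counts were 3 higher and 7 lower in sterol uptake, 4 and 2 in regulation, 3 lower in haem synthesis, 2 higher and 6 lower among isoprenoid users, and 3 higher and 2 lower among hypoxic genes, beside 22.9% higher and 26.8% lower.

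For HS against LS on all 28 arrays, HAP1, TIR1 and TIR4 were higher, at 1.67, 1.17 and 1.70, and COQ2, COX5B and CYC7 lower, at -1.31, -1.47 and -2.76. Without the 6 arrays HAP1, TIR1, COQ2 and CYC7 were called the same way, at 0.71, 1.40, -1.56 and -2.38, while TIR4 and COX5B, at 0.50 and -0.52, lost their calls. The counts were then 2 lower in sterol uptake, 2 higher and 1 lower in regulation, 1 lower in haem synthesis, 1 higher and 3 lower among isoprenoid users, and 1 higher and 3 lower among hypoxic genes, beside 10.2% higher and 18.7% lower.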

How the data were processed

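The members and gene lists were chosen with earlier results of these data known. The deposited ratio was made by the authors in GeneSpring 7.0 per the series design text: each chip was scaled on its positive genes, S. pombe left out, and each gene was scaled after that, which removes levels between genes. The summary of probe signals is not stated in the labels. Of 10928 probe sets, 5498 with 1 S. cerevisiae symbol were tested and 1746 of S. pombe served as a background.

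Log2 ratios were fitted as group means, with no further scaling or filter, in limma 3.58.1 under R 4.3.3, with lmFit and eBayes. Comparisons within a yeast used its 14 arrays, the others all 28. P-values were 2-sided and adjusted by Benjamini-Hochberg across the 5498 probe sets, with a threshold of 0.05. Beyond the members, up to 3 called genes with the largest change were named per list. The fit was tested on simulated data. Alternatives were quantile normalization, median centring, an offset before log2, moderation with a trend, array weights, a filter on low signal, a block for the replicate number, other choices of arrays, and changed gene lists. Promoter motifs were not searched here.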

Additional observations from a re-analysis of the deposited data

How the results depend on the processing

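Counts of the 32 genes called are given in the order of comparison, and the cause of each change was not tested. Shares of all probe sets called are not given for these alternatives, except above for the fit without the 6 LS arrays. The counts therefore do not show whether a change was particular to these genes. Quantile normalization gave 1 for HS at 30% and 1 for LS at 40%, median centring 11 for HS at 5 to 20% against 0%, trend and robust moderation 1 for LS at 40%, and array weights 1 for HS at 30%, 8 for HS at 40%, 5 for LS at 40% and 1 for the HS minus LS difference at 40%. Array weights were estimated from these arrays. All 28 arrays in 1 fit gave 1, 0 and 9 for HS at 5 to 20%, 40% and 50%, and 5 each for LS at 40% and 50%, where the spread of both yeasts is shared. Without the 6 LS arrays the counts were 4, 25 and 17 for LS at 30, 40 and 50%, 20 for HS against LS, and 8 and 6 for the HS minus LS differences at 40 and 50%. An offset before log2 and the filter on low signal kept each count within 1.5 times. Replicate numbers are shared between groups. Deviations of same-numbered arrays correlated at -0.021 to 0.427 in HS, median 0.288, and -0.15 to 0.714 in LS, median 0.392. Of 21 pairs of groups, 18 in HS and 15 in LS were over 0.1. Not every pair was over 0.1, and the main fits did not take the numbers as a pairing. The S. pombe median was higher in HS replicate 1 at 7 of 7 concentrations, and whether same-numbered arrays share a batch was not tested. With the replicate block the counts were 1 for HS at 30%, 2 for LS at 40% and 2 for LS at 50%, and 19, 19 and 29 for HS at 5 to 20%, 40% and 50%. Leaving out 1 array at a time gave 3 to 17, 4 to 14 and 18 to 24 for HS at 5 to 20%, 40% and 50%, 0 to 1 for LS at 40% and at 50%, 2 to 4 for HS against LS, and 0 to 1 for the HS minus LS difference at 50%. The difference of the late and early medians moved with quantile normalization to -0.93 for HS at 50%, -0.57 for LS at 40%, and 0.42 and -0.61 for the HS minus LS differences at 40 and 50%. Without the 6 arrays it was -0.056 and -0.47 for LS at 30 and 40%, 0.51 for HS against LS, and 0.44 and -0.13 for the HS minus LS differences. With 5% alone as the low side it was -1.42 for LS at 50%, and 1.38 and 1.03 for those differences. The late list without ERG9, ERG1 and ERG7 gave -0.98 for HS at 50%, and the early list without IDI1 and ERG20 gave -0.11 there and -0.63 for LS at 40%. Leaving out 1 array gave -0.017 to 0.57 for HS at 5 to 20%, -0.44 to 0.03 for HS at 40%, -0.66 to -0.15 for HS at 50%, -0.94 to -0.24 for LS at 30%, -1.37 to -0.63 for LS at 40% and 0.11 to 0.87 for the HS minus LS difference at 50%. No called gene changed sign under these alternatives in HS at 5 to 20%, 40% and 50% or in HS against LS. In LS at 40% HES1 was at 1.92 without the 6 arrays and at -0.20 with all. HMG1 was lower there without the 6 arrays. With all, its mean log2 ratio was 1.07 at 40%, against 0.52, 0.22 and 1.06 at 5, 10 and 20%. The early median there was -1.14 without the 6 arrays and 0.26 with all. Calls kept over genes and alternatives were 223 of 289 for HS at 5 to 20%, 189 of 270 at 40%, 394 of 450 at 50% and 72 of 72 for HS against LS.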
